A study of Rattus norvegicus with 6 samples.

Results

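The genes described here are 9 genes of the pigment cell (melanocyte) lineage, followed through the first week after crush of the rat sciatic nerve. Tyrp1 was chosen by its very large rise on the 7th day after injury, so its D7 values below are a description and carry no test. The other 8 genes, Dct, Tyr, Pmel, Mlana, Mitf, Kit, Mc1r and Oca2, were taken as well-known genes of the same lineage, to ask whether they moved with Tyrp1 in the control, D4 and D7 groups. The 9 genes are 9 of the 30957 genes in the mRNA table.

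Sciatic nerve RNA came from Sprague-Dawley rats about 1 month old, in 3 groups of 2 rats each: control, 4 days after crush (D4) and 7 days after crush (D7). In D4 and D7 rats the left sciatic nerve was clamped with hemostatic forceps. The study's methods give the control rats the operation without the clamp, whereas the sample labels call them normal controls. All groups share the strain, and the labels name no genetic alteration. Sprague-Dawley rats are albino and carry a defective Tyr allele. Whole nerve tissue was sequenced, so a lower value can stand for fewer cells of a type or for less RNA per cell, and these cannot be told apart. With 2 rats a group, each p-value sets a group difference against the spread within these pairs of animals, pooled over groups and moderated across genes.

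The 6 libraries held between 18727255 and 25350886 counted mRNA fragments, and the correlation of log2(CPM + 1) across genes within a group was 0.983 to 0.993. Of the 30957 genes, 15195 passed the filter on low counts and were tested with edgeR's quasi-likelihood test. Throughout, CPM is a depth-normalised count scaled with TMM factors, and a gene was called upregulated or downregulated at a Benjamini-Hochberg adjusted p under 0.05 with at least a 2-fold change. FPKM, which also divides by transcript length, is used only where levels of different genes are compared. The libraries of each group are named a and b.

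Melanocytes arise from the neural crest, in part from precursors that travel along nerves and also give rise to Schwann cells. Melanin is made in melanosomes, where tyrosinase (Tyr) starts the pathway from tyrosine, dopachrome tautomerase (Dct) converts dopachrome, and tyrosinase-related protein 1 (Tyrp1) acts further downstream. The transcription factor MITF drives these 3 enzyme genes in melanocytes through a promoter element called the M-box. KIT and the endothelin receptor EDNRB carry survival and migration signals to melanoblasts, and MC1R sets the kind of pigment made.

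The 9 genes did not follow 1 pattern. Tyrp1 went from near 0 in control nerve to among the more abundant mRNAs at D7, and Dct rose on both days but stayed at a much lower level than Tyrp1. Tyr and Mlana had 0 counts in all 6 libraries and Mc1r at most 2. Pmel and Kit were upregulated at D4 and did not pass the test at D7, Oca2 was downregulated at D4, and Mitf stayed within 2-fold of control on both days. Of the melanocyte markers, Tyr, Mlana and Slc45a2 were at 0 everywhere and Slc24a5 had few counts, while Tyrp1, Dct, Pmel and Oca2 had counts in every library. The set is therefore named for its genes, and whether melanocytes were present in the nerve was not tested.

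Of the 9 genes, 6 passed the low-count filter. Setting Tyrp1 aside, 5 were tested. In the control vs D4 comparison 3 of these 5 were upregulated (Dct, Pmel and Kit), where 11.2% of all tested genes were upregulated, and 1 was downregulated (Oca2), where 10.7% were. In the control vs D7 comparison 1 of the 5 was upregulated (Dct), beside 9.83% of all tested genes. Dct passed the low-count filter only through the injured groups, so the counts of 3 and 1 were partly fixed by the filter. None of the 5 was downregulated at D7, beside 9.02% of all tested genes, and DESeq2 called none lower either. Mitf passed the p threshold there (edgeR adjusted p = 0.0436) but not the 2-fold one. Between D4 and D7 the main edgeR fit called none of the 5 higher at D7, beside 1.68% of all genes. Dct was called by DESeq2, and by edgeR without the low-count filter, in the 2-group fit and with the D4 block letters exchanged. Pmel was lower at D7, beside 0.494% of all genes. The median log2 fold change of the 5 was 1.09 at D4, -0.13 at D7 and -0.17 for D7 against D4, while over all tested genes it was -0.04, 0.01 and 0.01. The D4 and D7 comparisons share the same 2 control libraries.

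**Figure D1:**
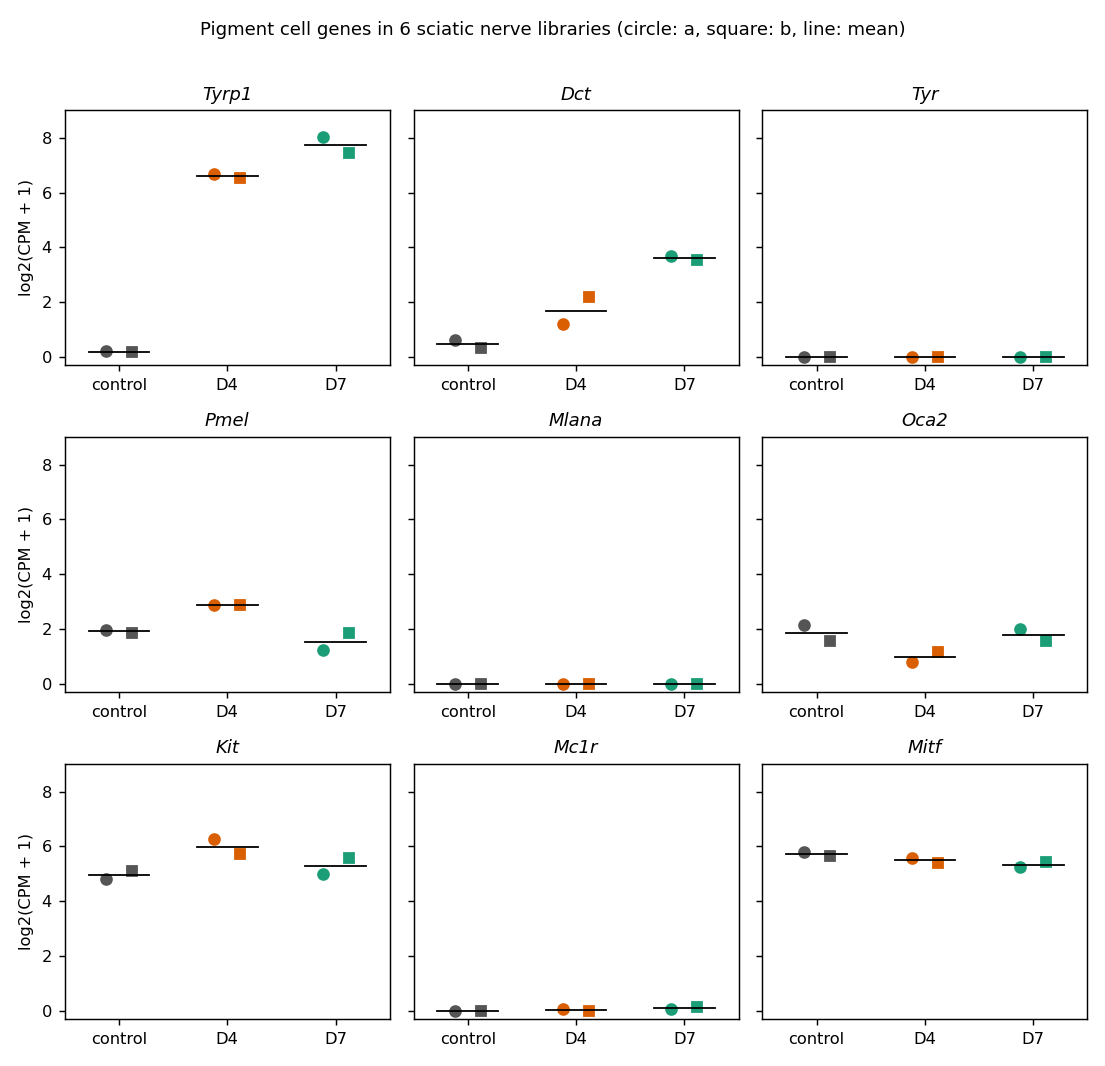
Level of each of the 9 genes in each library, as log2(CPM + 1), with 1 point per rat and groups control, D4 and D7 on the horizontal axis. Tyrp1 climbs from below 0.16 CPM in both control libraries to 175 and 261 CPM at D7, Dct climbs to 10.7 and 11.9 CPM, and Tyr and Mlana lie at 0.

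Tyrp1 (ENSRNOG00000029318, chr5:98387291-98406083 in Rnor_6.0) showed the largest fitted D7 rise of the 15195 tested genes, which is how it was picked. It had 3 and 2 counts in the control libraries, 2478 and 2478 at D4, and 5562 and 3527 at D7. In CPM these were 0.155 and 0.121, then 101.7 and 91.5, then 261 and 174.5. The 3 groups did not overlap, and each D7 library was above each D4 library. Mean levels were 0.138 ± 0.0240 CPM in control, 96.6 ± 7.19 CPM at D4 and 218 ± 61.3 CPM at D7 (SD, n = 2).

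Because the control counts are so few, the size of the Tyrp1 rise is known only within a range. The scaled ratio of summed counts was 694 at D4 against control, with a 95% interval for counting error alone of 297 to 2138, and 1577 at D7, with 675 to 4857. The D7 to D4 ratio rested on large counts and was 2.27 (2.20 to 2.35 for counting error). The fitted log2 fold changes were 9.38 (SE 0.35) at D4, 10.56 (SE 0.35) at D7 and 1.17 (SE 0.19) for D7 against D4. Tyrp1 ranked 1 among D7 rises, 7 among D4 rises and 514 in the further rise from D4 to D7. Just behind it at D7 were Pth2r (9.75), AABR07030791.1 (9.47), Apoc1 (9.37) and LOC683295 (9.25), in log2 fold change. These 4 had 0 counts in both control libraries, so their fitted values, and the order, depend on the model's prior count.

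In level per length, Tyrp1 moved from the silent end of the transcriptome to its upper part. Its FPKM was 0.0497 and 0.0397 in control, 40.4 and 36.4 at D4, and 103.5 and 70.1 at D7. The genes with a higher FPKM numbered 16883 and 17030 in the control libraries, 1830 and 2116 at D4, and 509 and 884 at D7.

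Dct (chr15:103208258-103244494), the enzyme that acts just before Tyrp1, was upregulated at both times but stayed a low-abundance mRNA. It had 10 and 4 counts in control, 31 and 95 at D4, and 253 and 217 at D7, or 0.515 and 0.241, 1.27 and 3.51, and 11.9 and 10.7 CPM. All injured libraries lay above both control libraries, and both D7 libraries above both D4 libraries. The log2 fold change against control was 2.62 (SE 0.62, edgeR adjusted p = 0.0173) at D4 and 4.85 (SE 0.61, edgeR adjusted p = 0.00227), or 28.9-fold, at D7. For D7 against D4 it was 2.23 (SE 0.48) and the main edgeR fit's adjusted p of 0.0599 missed the threshold, while DESeq2 gave 0.00138. The difference was also called by edgeR without the low-count filter, in the 2-group fit and under the replicate block with the D4 letters exchanged. Without D4 b this difference was 3.15 (edgeR adjusted p = 0.115). The D4 call was lost without control b (log2 fold change 2.21, adjusted p = 0.0762) or without D4 b (1.71, adjusted p = 0.0573). Without control a the D4 log2 fold change was 3.29, with the call kept, and the D7 log2 fold change was 5.52, also with the call kept.

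The balance of these enzyme mRNAs changed between groups. The FPKM of Tyrp1 was 0.196 and 0.327 of that of Dct in the control libraries, where both rested on 10 counts or fewer. It was 52.3 and 17.1 times that of Dct at D4 and 14.4 and 10.6 times at D7. At D4 the spread of this ratio came from Dct, which differed between D4 a and D4 b more than Tyrp1 did.

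Tyr (chr1:151012598-151106802), the enzyme that starts melanin synthesis, had no counted fragment in any library. A count of 3, the limit that a count of 0 allows, corresponds to between 0.111 and 0.181 CPM across the 6 libraries. Below this limit a Tyr level was not detectable at this depth.

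The promoters of these 3 enzyme genes are shown because the same MITF-family element lies in each, although their mRNAs behaved so differently. The windows run from 250 bases before to 50 after the RefSeq transcription start on GRCr8, at chr5:100326875-100327174 on the plus strand for Tyrp1, chr15:101507980-101508279 on the minus strand for Dct and chr1:150622808-150623107 on the minus strand for Tyr. They are written 5′ to 3′ along the gene, and capitals mark the letters CATGTG (the M-box core) and, in Dct, ACAAAG (a SOX motif).
Tyrp1: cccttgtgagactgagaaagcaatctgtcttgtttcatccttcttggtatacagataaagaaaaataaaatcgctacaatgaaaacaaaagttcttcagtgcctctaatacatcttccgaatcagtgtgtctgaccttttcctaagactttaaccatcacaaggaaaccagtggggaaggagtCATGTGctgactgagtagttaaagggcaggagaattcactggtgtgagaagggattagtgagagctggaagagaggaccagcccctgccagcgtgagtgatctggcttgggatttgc
Dct: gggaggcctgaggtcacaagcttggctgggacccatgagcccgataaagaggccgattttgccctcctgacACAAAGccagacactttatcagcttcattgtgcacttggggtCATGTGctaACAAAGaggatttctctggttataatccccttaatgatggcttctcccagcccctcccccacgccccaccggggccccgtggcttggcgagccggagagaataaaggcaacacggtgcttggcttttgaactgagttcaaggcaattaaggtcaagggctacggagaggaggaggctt
Tyr: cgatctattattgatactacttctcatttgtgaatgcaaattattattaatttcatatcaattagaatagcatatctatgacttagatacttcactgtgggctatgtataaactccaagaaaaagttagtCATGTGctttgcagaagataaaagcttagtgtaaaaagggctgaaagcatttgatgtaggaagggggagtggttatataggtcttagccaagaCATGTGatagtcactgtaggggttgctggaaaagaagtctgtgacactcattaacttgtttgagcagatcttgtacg

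CATGTG was searched on both strands in the 300-base windows of all 9 genes, each of which matched a RefSeq entry. It was present in 4 of the 9, at -67 in Tyrp1, at -137 in Dct, at -120 and -27 in Tyr and at -204 on the other strand in Mlana. Across 33469 RefSeq promoter windows of the same length, 14.0% held it. The longer run TCATGTGCT, looked for after the windows had been seen, was found in Tyrp1, Dct and Tyr and in 0.203% of all windows (68 of 33469). ACAAAG was found in Dct alone among the 9, at -179 and -128, and in 18.8% of all windows. CACGTG, an E-box, was in none of the 9 windows and in 6.42% of all. No window showed overlapping motifs other than the longer run, which contains the M-box core. A match is a description of the letters, and 2 of the 4 genes that hold CATGTG (Tyr and Mlana) had 0 counts in every library.

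Beside the enzymes, the chosen 9 hold 3 genes of other melanosome proteins, of which Pmel and Oca2 had enough counts to test, and both stayed low. Pmel (chr7:3133506-3143911) forms the fibrils on which melanin is laid down. Its CPM was 2.94 and 2.65 in control, 6.40 and 6.35 at D4, and 1.36 and 2.57 at D7. It was higher in both D4 libraries than in all others, and both D7 libraries were below both controls. The log2 fold change was 1.19 (SE 0.33, edgeR adjusted p = 0.0282), or 2.28-fold, at D4 and -0.51 (SE 0.34, edgeR adjusted p = 0.28) at D7. D7 was lower than D4 by a log2 value of -1.70 (SE 0.33, edgeR adjusted p = 0.0481), so Pmel fell from D4 to D7 while the Tyrp1 counts were higher at D7. The D4 call was lost when control a (adjusted p = 0.072), control b (0.0965), D4 a (0.117) or D4 b (0.116) was left out. The fall from D4 to D7 was lost in 7 of 13 other settings, among them each left-out library but D7 b.

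Oca2 (chr1:114679537-114987433), a melanosomal chloride channel, was measured at 3.40 and 1.93 CPM in control, 0.739 and 1.22 at D4, and 2.96 and 1.93 at D7. Both D4 libraries were below all others, whereas control and D7 overlapped. The D4 log2 fold change was -1.44 (SE 0.46, edgeR adjusted p = 0.0454), a call that 8 of 13 other settings lost, with adjusted p from 0.0179 to 0.208 over all 13. At D7 it was -0.13 (SE 0.44, edgeR adjusted p = 0.835). The D7 sign was not stable, with 0.17 without TMM factors and a range of -0.48 to 0.34 over all 13 settings. Mlana (chr1:247869756-247884442), a melanosome protein and common melanocyte marker, had 0 counts in all 6 libraries.

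Of 6 further late melanosome genes 3 were tested, and 2 of these, Gpnmb and Tspan10, were upregulated on both days. Of all tested genes 11.2% were upregulated at D4 and 9.83% at D7. Tspan10 passed the low-count filter only through the injured groups, so the count of 2 was partly fixed by the filter. The remaining late melanosome genes were scarce. Gpnmb (chr4:78694447-78715683), a PMEL relative that macrophages also express, went from 23.5 and 18.5 CPM in control to 1217 and 396 at D4 and 882 and 804 at D7. Its log2 fold change was 5.26 (SE 0.57, edgeR adjusted p = 0.000985) at D4 and 5.33 (SE 0.57, edgeR adjusted p = 0.00134) at D7. The D4 libraries differed widely from each other, and without D4 a the D4 log2 fold change was 4.24. All 10 macrophage markers were upregulated at D4 and 8 of 10 at D7, and their summed CPM was 360 to 393 in control, 1206 to 1235 at D4 and 756 to 947 at D7. Their part in the Gpnmb rise was not tested.

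Tspan10, a tetraspanin of pigment cells, had 0 and 0 counts in control, 20 and 14 at D4, and 15 and 23 at D7. Against a floor of 3 counts per control library its level was at least 3.99-fold higher in the D4 group, and for the D7 group the bound was at least 5.49-fold (edgeR adjusted p = 0.00925 and 0.00835). Trpm1, a cation channel of melanocytes, had 6 to 26 counts in every library and did not pass the test (edgeR adjusted p = 0.442 and 0.297). Slc45a2, a melanosomal transporter, was at 0 everywhere. Slc24a5, an ion exchanger, had 5 and 6 counts at D4 and at most 1 elsewhere. Gpr143, a melanosomal receptor, had 8 and 6 counts in control and at most 2 after injury, and neither of the last 2 passed the low-count filter.

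**Figure D2:**
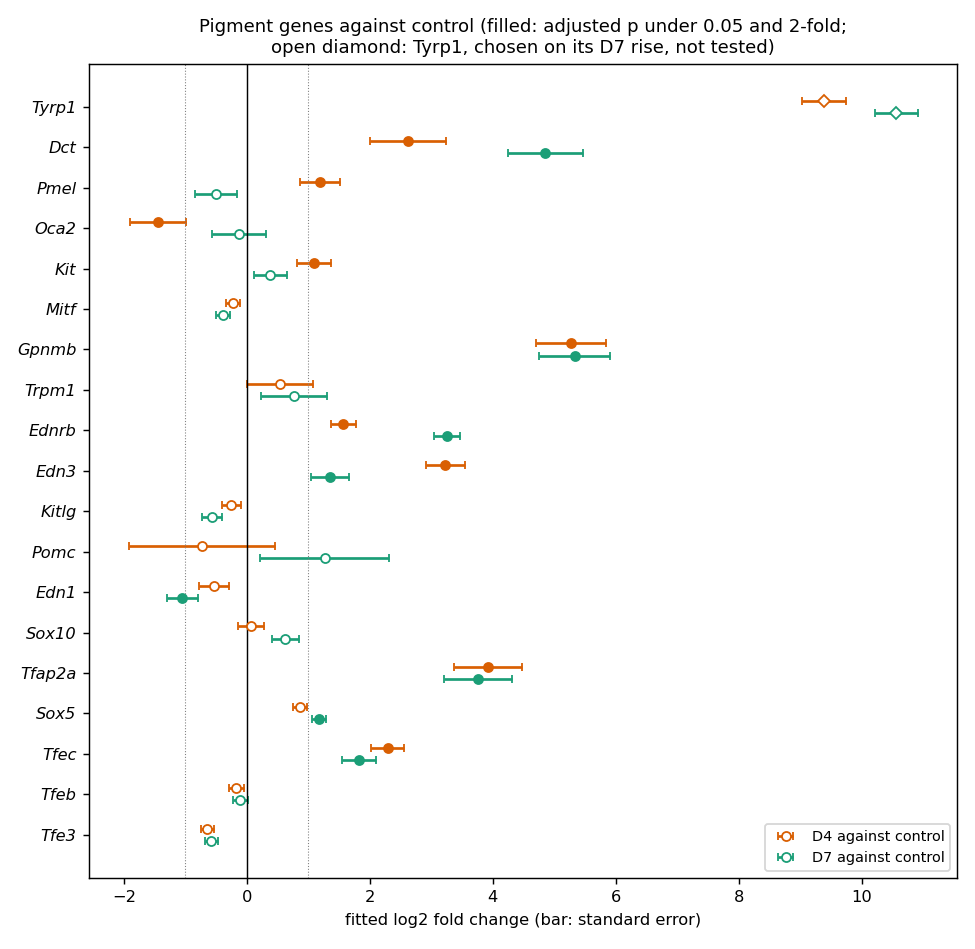
Fitted log2 fold change of pigment genes at D4 and D7 against control, with bars for the standard error. Filled points passed an adjusted p of 0.05 and 2-fold, open diamonds mark Tyrp1, and the Dct points at 2.62 and 4.85 lie well above those of Mitf at -0.22 and -0.39.

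Among receptors and ligands, Kit and Edn3 were highest at D4 and Ednrb at D7. Kit (chr14:35072108-35149610), the receptor for stem cell factor, was measured at 26.9 and 33.0 CPM in control, 76.5 and 51.3 at D4, and 30.8 and 47.2 at D7. D4 libraries were above all others, and 1 D7 library lay between the control values. The log2 fold change was 1.09 (SE 0.27, edgeR adjusted p = 0.0203), or 2.13-fold, at D4 and 0.38 (SE 0.27, edgeR adjusted p = 0.309) at D7. Without control a the D4 adjusted p was 0.0855 and without D4 a 0.108.

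Mast cells also express Kit. The summed CPM of 9 mast cell markers was 113.6 and 113.8 in control, 69.7 and 44.2 at D4, and 35.3 and 64.0 at D7, with all 9 detected in every library. None was upregulated, beside 11.2% of all tested genes at D4 and 9.83% at D7. Gata2 was downregulated at D4, and Tpsb2, Ms4a2, Hdc and Gata2 were downregulated at D7, where 10.7% and 9.02% of all tested genes were. Each of these calls was lost in some of the 13 other settings, in 2 of them for Tpsb2 and in 7 for Hdc. The part of mast cells in the Kit values was not tested.

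Kitlg, which encodes the KIT ligand, was not called on either day. It had a log2 fold change of -0.25 (edgeR adjusted p = 0.251) at D4, which turned to 0.04 without TMM factors, and -0.56 (SE 0.16, edgeR adjusted p = 0.0393) at D7, below 2-fold. Mc1r (chr19:56216813-56217766), the melanocortin receptor, had 0 and 0 counts in control, 1 and 0 at D4, and 1 and 2 at D7, all at or under the 3-count floor. Its antagonist gene Asip had 1 count in D7 b and 0 elsewhere, and Pomc, the precursor of its ligand, had 0 to 17 counts with no call (edgeR adjusted p = 0.647 and 0.374).

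Both genes of the endothelin pair, Ednrb and Edn3, were upregulated on both days. Ednrb (chr15:88006977-88036354), the endothelin receptor of melanoblasts that other nerve cells also express, had 19.9 and 21.0 CPM in control, 50.2 and 71.4 at D4, and 219 and 173 at D7. Each injured library was above both controls, and D7 was above D4. The log2 fold change was 1.57 (SE 0.20, edgeR adjusted p = 0.00181), or 2.97-fold, at D4 and 3.26 (SE 0.21, edgeR adjusted p = 0.000381), or 9.56-fold, at D7. D7 exceeded D4 3.22-fold (edgeR adjusted p = 0.0159), and this last call was lost without D4 a (0.154), D4 b (0.112) or D7 a (0.066).

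Edn3 (chr3:172856733-172880450), the endothelin that acts on EDNRB in the neural crest, peaked at D4. Its CPM was 11.5 and 6.87 in control, 90.3 and 82.0 at D4, and 18.0 and 28.9 at D7, with no overlap between groups. It was upregulated 9.34-fold at D4 (log2 fold change 3.22, SE 0.32, edgeR adjusted p = 0.000679) and 2.54-fold at D7 (log2 fold change 1.35, SE 0.31, edgeR adjusted p = 0.0177). The fall from D4 to D7 was -1.88 on the log2 scale (SE 0.29, edgeR adjusted p = 0.0309). The D7 call was lost without control b (0.057) or D7 b (0.0583). The fall was lost under a replicate block (0.0563) and without D4 a (0.212), D4 b (0.186) or D7 a (0.132). Edn1, a ligand of both endothelin receptors, was downregulated at D7 (log2 fold change -1.05, SE 0.25, edgeR adjusted p = 0.0219), a call lost without TMM factors (0.0517) and without control a (0.0551), control b (0.0634), D7 a (0.101) or D7 b (0.0684). Over the list of 8 signal genes, 7 were tested, with 2 up and none down at D4, 2 up and 1 down at D7, and 1 up and 1 down between D4 and D7. Of all tested genes 11.2% were up and 10.7% down at D4, 9.83% and 9.02% at D7, and 1.68% and 0.494% between D4 and D7.

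**Figure D3:**
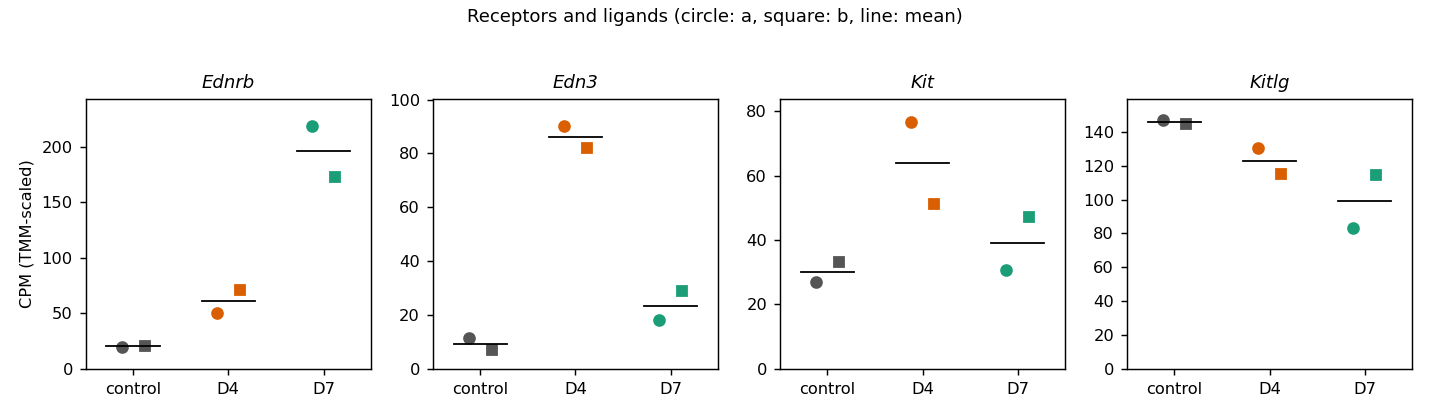
CPM of Ednrb, Edn3, Kit and Kitlg in each library, with 1 point per rat by group. Ednrb is highest at D7 (219 and 173 CPM), whereas Edn3 is highest at D4 (90.3 and 82.0 CPM).

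Mitf (chr4:130172727-130425532), the transcription factor that binds the M-box, did not reach a 2-fold change on either day. Its CPM was 54.0 and 49.4 in control, 47.0 and 41.5 at D4, and 36.9 and 42.0 at D7. Both control libraries were above all injured ones. The log2 fold change was -0.22 (SE 0.12, edgeR adjusted p = 0.167) at D4 and -0.39 (SE 0.12, edgeR adjusted p = 0.0436) at D7, too small for a call. Without TMM factors these were 0.06 and -0.09, so the direction at D4 depends on the scaling. Its isoforms, which start from different promoters, are summed in 1 gene row.

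Of 13 neural crest and melanocyte transcription factors listed, 12 were found and 11 tested. At D4 2 of the 11 were upregulated and at D7 3, beside 11.2% and 9.83% of all tested genes. None was called downregulated at either time, beside 10.7% and 9.02%, although Tfe3 (log2 fold change -0.64 and -0.58, edgeR adjusted p = 0.00435 and 0.00829) and, at D4, Sox9 (-0.85, edgeR adjusted p = 0.00605) were lower at less than 2-fold. Tfap2a, a neural crest factor, had 3 and 13 counts in control, 168 and 189 at D4, and 115 and 141 at D7 (log2 fold change 3.92, SE 0.55, edgeR adjusted p = 0.0025 at D4, and 3.76, SE 0.55, adjusted p = 0.00394 at D7). Without control a these were 3.14 and 2.97, and without control b 5.44 and 5.27, with the calls kept. Tfap2a passed the low-count filter only with the injured libraries, so the counts of 2 and 3 upregulated factors were partly fixed by the filter. Tfec, a member of the MITF family, rose by 2.29 (SE 0.27, edgeR adjusted p = 0.00134) at D4 and 1.83 (SE 0.27, edgeR adjusted p = 0.00413) at D7 on the log2 scale, while its relatives Tfeb and Tfe3 were not called. Sox5 was upregulated at D7 (1.17, SE 0.12, edgeR adjusted p = 0.0012). Sox10, the factor that melanocytes share with Schwann cells, had 4270 to 11631 counts and log2 fold changes of 0.07 (edgeR adjusted p = 0.81) and 0.63 (edgeR adjusted p = 0.0618). Pax3 had 10 counts in control b, 3 in D7 a and 0 elsewhere, and was not tested.

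The machinery that builds and moves melanosomes is shared with other lysosome-related organelles. All 24 of these genes found were tested. At D4 Rab32, Myo5a and Bloc1s3 were upregulated, and Mlph and Slc7a11 downregulated. At D7 Rab32, Bloc1s3, Rab38 and Hps3 were upregulated and Mlph downregulated, and none was called between D4 and D7. These counts stand beside the shares of all tested genes, where 11.2% were called up and 10.7% down in the control vs D4 comparison, 9.83% up and 9.02% down in control vs D7, and 1.68% and 0.494% between D4 and D7. Rab32, a small GTPase that directs cargo to melanosomes, rose by 2.05 (SE 0.18, edgeR adjusted p = 0.0005) and 2.06 (SE 0.18, edgeR adjusted p = 0.000771) on the log2 scale. Mlph, the melanophilin that links melanosomes to myosin Va, fell by 3.45 (SE 0.55, edgeR adjusted p = 0.00407) at D4 and by 1.76 (SE 0.50, edgeR adjusted p = 0.0354) at D7. The D7 call of Mlph was lost in 8 of 13 other settings, among them each left-out library but D7 b, without which the log2 fold change was -2.64. Without control b or D4 a the D4 call of Slc7a11 was lost as well (edgeR adjusted p = 0.0795 and 0.0925), while Rab38 at D7 (0.92 without control b and 0.9995 without D7 a, against 1.04) and Hps3 at D7 (0.87 without control a, against 1.09) slipped under 2-fold with edgeR's adjusted p at 0.0134, 0.0217 and 0.00707. Myo5a, the motor partner of Mlph, went the other way from Mlph at D4, with a log2 fold change of 1.18 (SE 0.08, edgeR adjusted p = 0.000257). The median of the 24 was 0.16 at D4 and 0.22 at D7.

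The 5 genes whose 6-library profile lay nearest to that of Tyrp1 held 1 gene of the pigment lists, Gpnmb. Likeness was the Euclidean distance between profiles of log2(CPM + 1), each centred on its control mean, over the 6 libraries. Gpr83, a G protein-coupled receptor, was nearest at 1.46, followed by Ngfr (the p75 neurotrophin receptor, 2.85), Ptprn (a dense-core vesicle protein, 3.66), Gpnmb (3.97) and Pcsk1 (a prohormone convertase, 4.09). Gpr83 had 6 and 9 counts in control, 1920 and 3477 at D4, and 2999 and 5729 at D7. Its D7 libraries were in the reverse order to those of Tyrp1, with D7 b above D7 a. Among the other 5 tested genes of the 9, Dct came nearest at 9.67, at rank 310, and Kit, Pmel, Mitf and Oca2 followed at 12.8, 13.7, 14.7 and 14.9. The distance depends on abundance as well as on fold, so a low-abundance gene such as Dct cannot lie close to Tyrp1. The untested Mc1r, Tyr and Mlana, at or near 0 counts, lay at 13.9, 14.03 and 14.03.

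**Figure D4:**
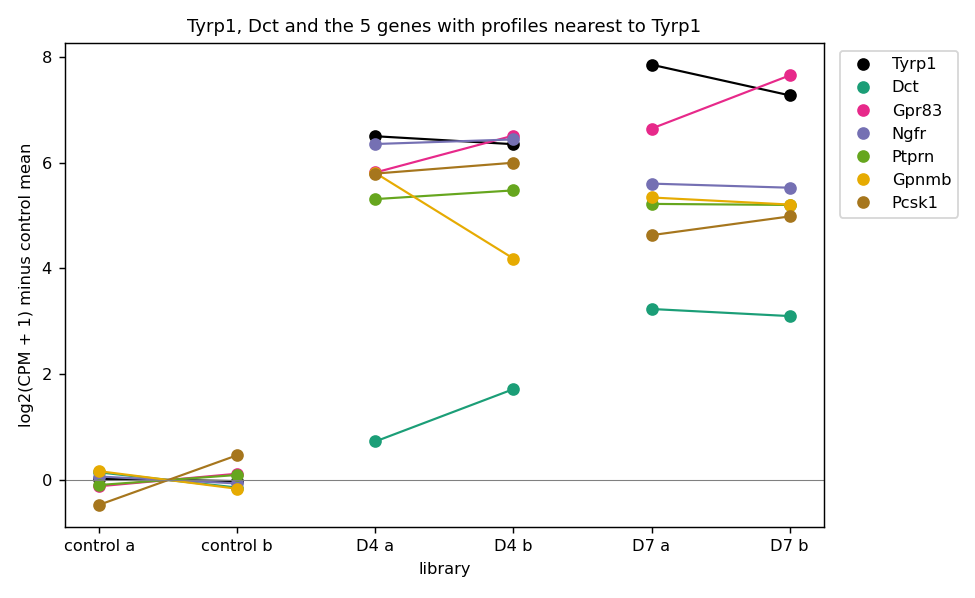
Profiles of Tyrp1, Dct and the 5 genes nearest to Tyrp1, as log2(CPM + 1) minus the control mean of each gene, in each of the 6 libraries. Gpr83 runs beside Tyrp1, while Ngfr and Pcsk1 are higher at D4 than at D7 and Dct stays well below.

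No gene near Tyrp1 was called on either day. Of 5 genes within 500 kb, 4 had 0 counts everywhere. The other was Lurap1l, 63.0 kb away, with 96 and 63 counts in control, 176 and 187 at D4, and 142 and 178 at D7, and log2 fold changes of 0.69 (edgeR adjusted p = 0.0563) and 0.82 (edgeR adjusted p = 0.0383), below 2-fold.

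The lncRNA table held 9 transcripts within 10 kb of these genes, near Pmel, Mitf, Mc1r and Oca2, and none near Tyrp1, Dct, Tyr, Mlana or Kit. Of these, 7 were tested and 1 was called on each day, in comparisons where 10.1% (D4) and 5.79% (D7) of all tested lncRNAs were called in either direction. It was NONRATT014386.2 (chr19:56210255-56213296), inside the span of Tcf25 and outside Mc1r, with 6 and 1 counts in control, 113 and 157 at D4, and 155 and 153 at D7. This lncRNA passed the low-count filter only through the injured groups, so the count of 1 was partly fixed by the filter. Its log2 fold change was 5.07 (SE 0.58, edgeR adjusted p = 0.00774) and 5.33 (SE 0.58, edgeR adjusted p = 0.0112), whereas that of Tcf25 itself was -0.06 and 0.16. The D4 call was lost without D4 b, and the D7 call without D7 a or D7 b. Whether the counting used strand is not stated, so its reads and those of Tcf25 cannot be told apart by strand.

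Markers of the cell types in or around the nerve moved between the same groups. The summed CPM of 12 Schwann cell markers was 16060 to 24110 in control, 5824 to 6132 at D4 and 6477 to 8330 at D7. Mbp and Prx made up most of the control sum, so its fall follows these 2 genes and not the list as a whole. Mean CPM in control, D4 and D7 was 10600, 758 and 1628 for Mbp and 6235, 36.3 and 1073 for Prx. Prx and Mbp, which encode proteins of the myelin sheath or its Schwann cell, had log2 fold changes of -7.42 and -3.81 at D4 and -2.54 and -2.70 at D7, while Ngfr rose by 6.46 and 5.62. At D4 4 of the 12 were upregulated and 4 downregulated, and at D7 4 and 2, where all tested genes gave 11.2% and 10.7% at D4 and 9.83% and 9.02% at D7. Between D4 and D7, Prx was higher and Shh was lower, beside 1.68% and 0.494% of all tested genes. Both calls were lost without D4 a or D4 b, although the Prx log2 fold change there was 4.86 and 4.91. The Shh call was also lost without D7 a or D7 b. The part of these markers in the changes of the pigment genes was not tested.

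Keratinocytes are the main cells of the epidermis, in which melanocytes reside, so their markers were read beside the pigment genes. Of 7 found, 4 were tested, and 3 (Krt5, Krt1 and Dsp) were downregulated on both days. Of all tested genes 10.7% were downregulated at D4 and 9.02% at D7. Krt5 and Krt1 passed the low-count filter only through the control group, so the count of 3 was partly fixed by the filter. Of the calls of these 3 genes, only those of Krt5 were kept in all 13 other settings. Krt5 had 53 and 25 counts in control, 0 and 0 at D4, and 1 and 0 at D7, and Krt14 had 0 to 4 counts in every library. The Krt5 row spans 136627 bases that include the whole Krt1 locus, so its counts may not come from Krt5 alone. The summed CPM was 11.5 to 16.2 in control, 3.00 to 4.36 at D4 and 1.78 to 3.37 at D7. Dsp alone gave most of the sum in every library, with 6.34 and 12.6 CPM in control. The part of skin in the pigment gene values was not tested.

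Fat, muscle and connective tissue markers were read in the same way. The 5 adipocyte markers summed to 1080 to 1315 CPM in control and 154 to 309 at D4. At D7 they summed to 7.09 in D7 a and 438 in D7 b, so D7 a stands apart. None was called, although the log2 fold changes ran from -2.72 to -2.06 at D4 and from -2.68 to -2.18 at D7. Of all tested genes 11.2% were called up and 10.7% down at D4, and 9.83% and 9.02% at D7. Without D7 a the Tyrp1 ratio of D7 to control was 1256, and without D7 b it was 1880. Skeletal muscle markers summed to between 4.02 and 81.5 CPM, with no call among the 4 tested, beside the same shares of all tested genes. Of 8 fibroblast and perineurial markers none was upregulated, beside 11.2% of all tested genes at D4 and 9.83% at D7. In the same list 2 were downregulated at D4 and 3 at D7, beside 10.7% and 9.02% of all tested genes.

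**Figure D5:**
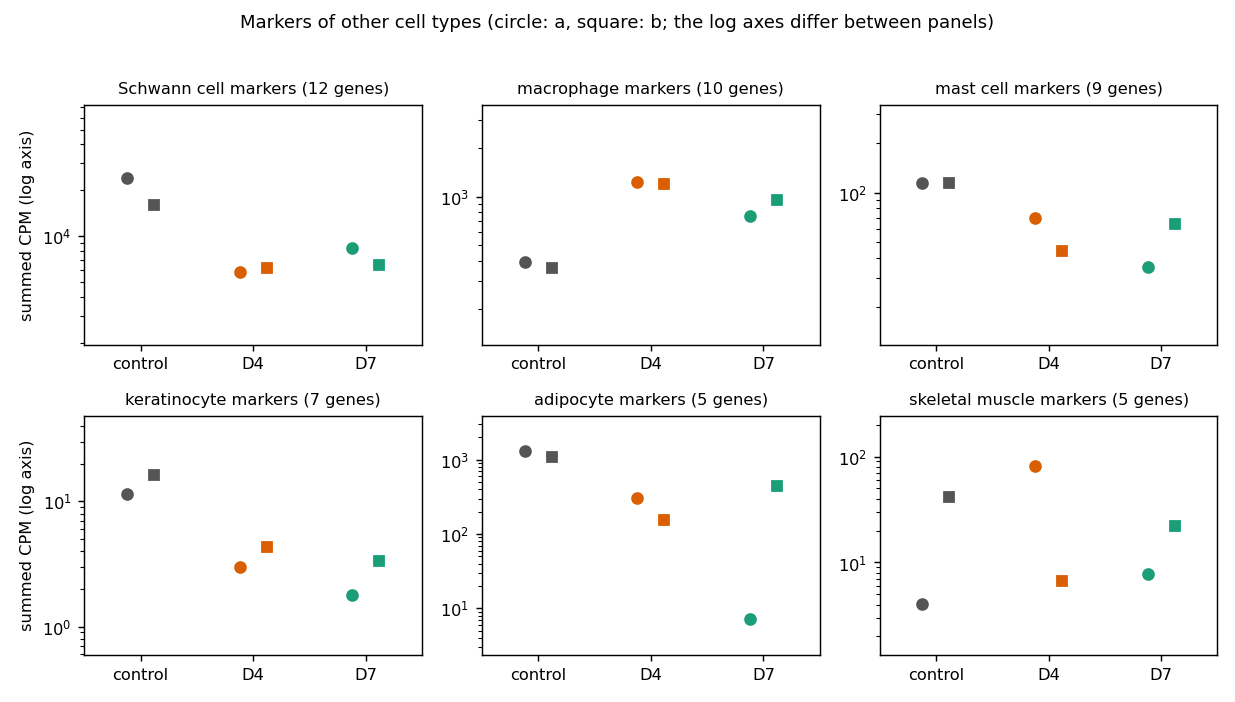
Summed CPM of each marker list in each library, on log axes that differ between panels, for Schwann cells (12 genes), macrophages (10), mast cells (9), keratinocytes (7), adipocytes (5) and skeletal muscle (5). Macrophage sums are higher after injury, mast cell and keratinocyte sums are lower, and the adipocyte sum of 7.09 CPM in D7 a stands apart from 438 CPM in D7 b. Mbp and Prx hold most of the Schwann cell sum in control.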

How the data were processed

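Rat sciatic nerve RNA was depleted of ribosomal RNA and sequenced as paired-end reads by the authors, who mapped it with HISAT2 2.0.4 to Rnor_6.0 and counted with StringTie 1.3.0, per the submitters' processing notes and the study's methods. The deposited counts are whole, unnormalized fragment counts per gene (mRNAs) or transcript (lncRNAs), and FPKM was derived from them by the authors. Strand use in counting was not stated. Counts per library were 18727255 to 25350886 for mRNAs and 2694777 to 3043817 for lncRNAs.

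Groups came from the treatment labels. After filterByExpr and TMM scaling, counts were tested with edgeR 4.0.16 (R 4.3.3, quasi-likelihood test, 1 fit of 6 libraries, Benjamini-Hochberg adjustment over all features tested). Standard errors are the absolute log2 fold change over the square root of F. Calls needed an adjusted p under 0.05 and 2-fold. Alternatives were DESeq2 1.42.0, no TMM factors, other filters, 2-group fits, a replicate block and leaving out each library. The procedure was tested on simulated data. Intervals of count ratios are exact and cover counting error only.

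The 9 genes and all gene lists were chosen with earlier results of these data known. Named were these 9, the late melanosome genes, Ednrb, Edn3, Kitlg, Sox10, Pax3, genes of other lists with extreme changes or in counts of 5 or fewer, and the 5 genes nearest to Tyrp1. Edn1, Pomc, Asip, Myo5a, Tfeb and Tfe3 were added after their values were seen. Hps5, Foxd3, Trp63 and Myh4 matched no row by symbol. Of the Schwann cell markers, 2 genes are not reported here and are in no sum or count. Promoter windows are from RefSeq (GRCr8), a different build from the counts, and were matched by symbol.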

Additional observations from a re-analysis of the deposited data

Results flagged for a closer look

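Tyrp1, chosen on its D7 rise, is left out here. For 3 other pigment genes and 2 Schwann cell markers the change from control differed between the D4 and D7 groups. The direct test of D7 against D4 (edgeR's quasi-likelihood test, Benjamini-Hochberg adjusted) called 1.68% of all tested genes higher and 0.494% lower. Pmel, the fibril gene of the melanosome, was lower at D7 than at D4 by a log2 value of -1.70 (adjusted p = 0.0481). Ednrb was higher at D7 by 1.69 (adjusted p = 0.0159). Edn3 was lower at D7 by -1.88 (adjusted p = 0.0309). Among the Schwann cell markers, Prx was higher at D7 by 4.89 (adjusted p = 0.0097) and Shh was lower by -1.30 (adjusted p = 0.0343). Each call of the 3 pigment genes was lost without D4 a, D4 b or D7 a, with adjusted p of 0.26, 0.243 and 0.167 for Pmel, 0.154, 0.112 and 0.066 for Ednrb, and 0.212, 0.186 and 0.132 for Edn3. The letter block also lost those of Pmel (0.0744) and Edn3 (0.0563). The Prx call was lost without D4 a or D4 b, although its log2 fold change there was 4.86 and 4.91. The Shh call was lost without any 1 of the 4 injured libraries, with log2 fold changes of -1.49 to -1.09. These fits leave a lone sample in a group, so a lost call there does not by itself show a smaller change.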

How the results depend on the processing

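The 13 alternatives were run gene by gene for Tyrp1, Dct, Pmel, Mitf, Kit, Oca2, Trpm1, Tspan10, Gpnmb, Ednrb, Edn3, Kitlg and Sox10 and, added after seeing the data, for the other pigment and marker genes named as called, other than macrophage markers, and no called change among these reversed. The Dct call at D7 was kept in all 13. Groups of 2 rats limit every test, and a fit without 1 library assumes that the lone sample of its group varies like the other groups. Few control counts limit the size of the Tyrp1 ratio, and counts under 3 limit what can be said of Tyr, Mlana and Mc1r.

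With the adjusted p alone and no fold threshold, 6715 of 15195 tested mRNAs were called at D4, 5705 at D7 and 710 between them. With the fold threshold these were 3333, 2863 and 331. Of the 45 other pigment genes tested, 24, 21 and 5 were called without it, and 11, 13 and 2 with it. With it, 11.2% of all tested genes were up and 10.7% down at D4, and 9.83% and 9.02% at D7. Between D4 and D7 these shares were 1.68% and 0.494%. DESeq2 called 521 mRNAs between D4 and D7. Without TMM factors the Tyrp1 ratio at D4 was 848.1, the median log2 fold change of all genes moved to 0.25 at D4 and 0.31 at D7, and 69.3% and 70.4% of called mRNAs were higher, against 51.2% and 52.1% with them.

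Leaving out each library gave 2540 to 3437 mRNAs at D4, 2284 to 2859 at D7 and 0 to 469 between D4 and D7. The edgeR count there was 0 without D4 a or D4 b, with 2054 and 2296 at an unadjusted p under 0.05, and 99 without D7 a. For the 9 genes, Tyrp1 included, the calls were 2 to 4 at D4 (5 with all libraries), 2 to 2 at D7 and 0 to 2 between D4 and D7. Tyrp1 was chosen on its D7 rise, so its calls add nothing to the stability of any of these counts. Its D7 values enter the D7 and the D7 against D4 calls, and its control values enter the D4 calls. For the other pigment genes the calls were 10 to 12, 9 to 12 and 0 to 2. The lncRNAs near the 9 genes called ranged from 0 to 1 on each day. The Tyrp1 ratio ranged from 623.6 to 799.1 at D4 and from 1256 to 1880 at D7.

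The letters a and b do not pair the rats: deviations of same-lettered libraries correlated at 0.025 (control and D4), 0.237 (control and D7) and -0.19 (D4 and D7). With the letter as a replicate block, 3281, 2827 and 248 mRNAs were called. Between D4 and D7 these held 1 of the 9 genes and 1 other pigment gene. That 1 of the 9 was Tyrp1, the gene chosen on its D7 rise. With the D4 letters exchanged, an alternative chosen after seeing the data, the counts were 3364, 2907 and 334.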
